A study of Mus musculus with 4 samples.

Results

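The 10 genes described here encode the core of the BCL2 family: the pore-forming effectors Bax and Bak1, the survival proteins Bcl2, Bcl2l1 (BCL-XL) and Mcl1, and the BH3-only proteins Bid, Bad, Bcl2l11 (BIM), Bbc3 (PUMA) and Pmaip1 (NOXA). They were chosen by name, with earlier results of these data known, and all 10 are among the 19074 genes listed in the count files. The measurements are single-cell RNA counts from mouse pancreatic islets, made with the 10x Genomics Chromium 3′ assay, in which each captured RNA molecule is counted once through its molecular barcode (UMI). The series has 2 libraries from Sel1LIns1 mice, labelled Sel1L knockout (KO), and 2 from Sel1Lf/f mice with floxed alleles, labelled wild type (WT). All were of the C57BL/6 strain. By the name of the line, Cre is driven by the insulin gene Ins1, which beta cells express, and SEL1L is the adaptor of the HRD1 ubiquitin ligase in the degradation of misfolded proteins of the endoplasmic reticulum (ER). Mice with Cre but unfloxed Sel1L were not among the samples, so Cre and the deletion cannot be told apart. The age is 7 weeks in the sample labels but 5 weeks in the series text. A 3′ tag need not lie in the deleted exons, which are not given, so Sel1l counts were not used as a check of the labels. Islets recovered overnight and were then dissociated with trypsin. Whether replicates come from different animals is not given, so p-values here reflect library-to-library spread, which may be technical.

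BCL2 family proteins decide whether the outer mitochondrial membrane is opened. BAX and BAK1 form the pore that releases cytochrome c, BCL2, BCL-XL and MCL1 bind and restrain them, and BH3-only proteins either block the survival proteins or activate the effectors. In beta cells the family is studied as the point where ER stress, cytokine signals and DNA damage meet. Transcript levels say nothing of cleavage, phosphorylation or protein turnover, by which BID, BAD and MCL1 are largely controlled.

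Cells were sorted into classes by the share of their UMIs from hormone genes. Beta cells had at least 10% of UMIs from Ins1 and Ins2, and alpha and delta cells at least 3% from Gcg or Sst with insulin under 5%. After doublets were removed there were 2381 and 1365 beta cells in the KO libraries and 3533 and 3473 in the WT libraries. Alpha cells numbered 761 and 330 in KO and 1116 and 939 in WT, and delta cells 308 and 229 in KO and 450 and 526 in WT. In every class the summed level of its own markers was above that of each other list. The lists hold the hormone genes that defined the classes, so this order was largely set by the sorting and is no check of it. Library totals ran from 99156230 to 228515309 UMIs. Insulin was 40.9% and 44.6% of beta cell UMIs in KO and 67.5% and 68.3% in WT. The median mitochondrial share of beta cells was 3.65% and 3.57% in KO and 1.75% and 1.71% in WT, and alpha and delta cells also had higher shares in KO. The part of this difference in the results below was not tested. The PP marker Ppy stood at 19537 and 12715 CPM in KO beta cells and 3856 and 3025 CPM in WT beta cells (counts per 1000000 non-hormone UMIs), and endothelial markers summed to 45.1 and 25.6 in KO and 22.1 and 16.4 in WT; their part was not tested either. Libraries shared between 1 and 9 cell barcodes in pairs.

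Levels are given as CPM of non-hormone UMIs because hormones fill different parts of the total in each class and genotype. The 3′ assay counts a molecule once whatever its length, so levels of different genes were set side by side. The order of genes assumes that each is captured equally well, which was not tested. In WT beta cells the order was Bax, Mcl1, Bad, Bcl2l1, Bbc3, Bcl2l11, Bak1, Bid, Bcl2 and Pmaip1. Bax stood at 309 and 321, Mcl1 at 95.3 and 92.4 and Bad at 73.2 and 73.3 CPM. Bcl2l11 at 19.4 and 13.9 could not be separated from Bak1 at 13.9 and 13.4 in the second library. Bcl2 had only 1.48 and 1.55, and Pmaip1 rested on 3 and 4 UMIs in all.

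Beta cells differed from the other endocrine classes most in Bcl2, the founding survival gene of the family. Bcl2 had 1.48 and 1.55 CPM in WT beta cells, against 21.3 and 23.8 in WT alpha cells and 17.7 and 22.7 in WT delta cells. The log2 difference within WT libraries was -4.06 (SE 0.159) for beta over alpha cells and -3.74 (SE 0.230) for beta over delta cells, and both stayed negative under every scaling tried. Bcl2l11, which encodes the BH3-only protein BIM, was also lower in beta than in alpha cells, by a log2 value of -1.06 (SE 0.0835, edgeR adjusted p = 4.41e-31). In all, 6 of the 9 members tested were lower in beta than in alpha cells and 0 were higher, where 64.7% of all genes were called, 31.4% lower and 33.3% higher, but Bcl2l1 and Bad turned to 0.071 and 0.13 by cell number and Bad to 0.20 in KO libraries. Bax (-0.08) and Bid (-0.05) were not called by cell number, Bcl2l1, Bid and Bad were not called with hormone genes left out, and Bcl2 and Bcl2l11 were called lower under every scaling tried. Against delta cells, Bax (log2 0.57), Bcl2l1 (0.44) and Bbc3 (0.76) were higher in beta cells and Bcl2 and Mcl1 (-0.32) lower. Of all genes 55.5% were called, 29% higher and 26.5% lower. Bax, Bcl2l1 and Bbc3 turned negative when sums were scaled by all UMIs. Mcl1 turned positive when scaled by cell number, and Bcl2l1 turned negative with KO libraries in place of WT libraries. With 2 libraries and 1 residual degree of freedom, the very small p-values of these class comparisons rest on a spread estimated over all genes.

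**Figure D1:**
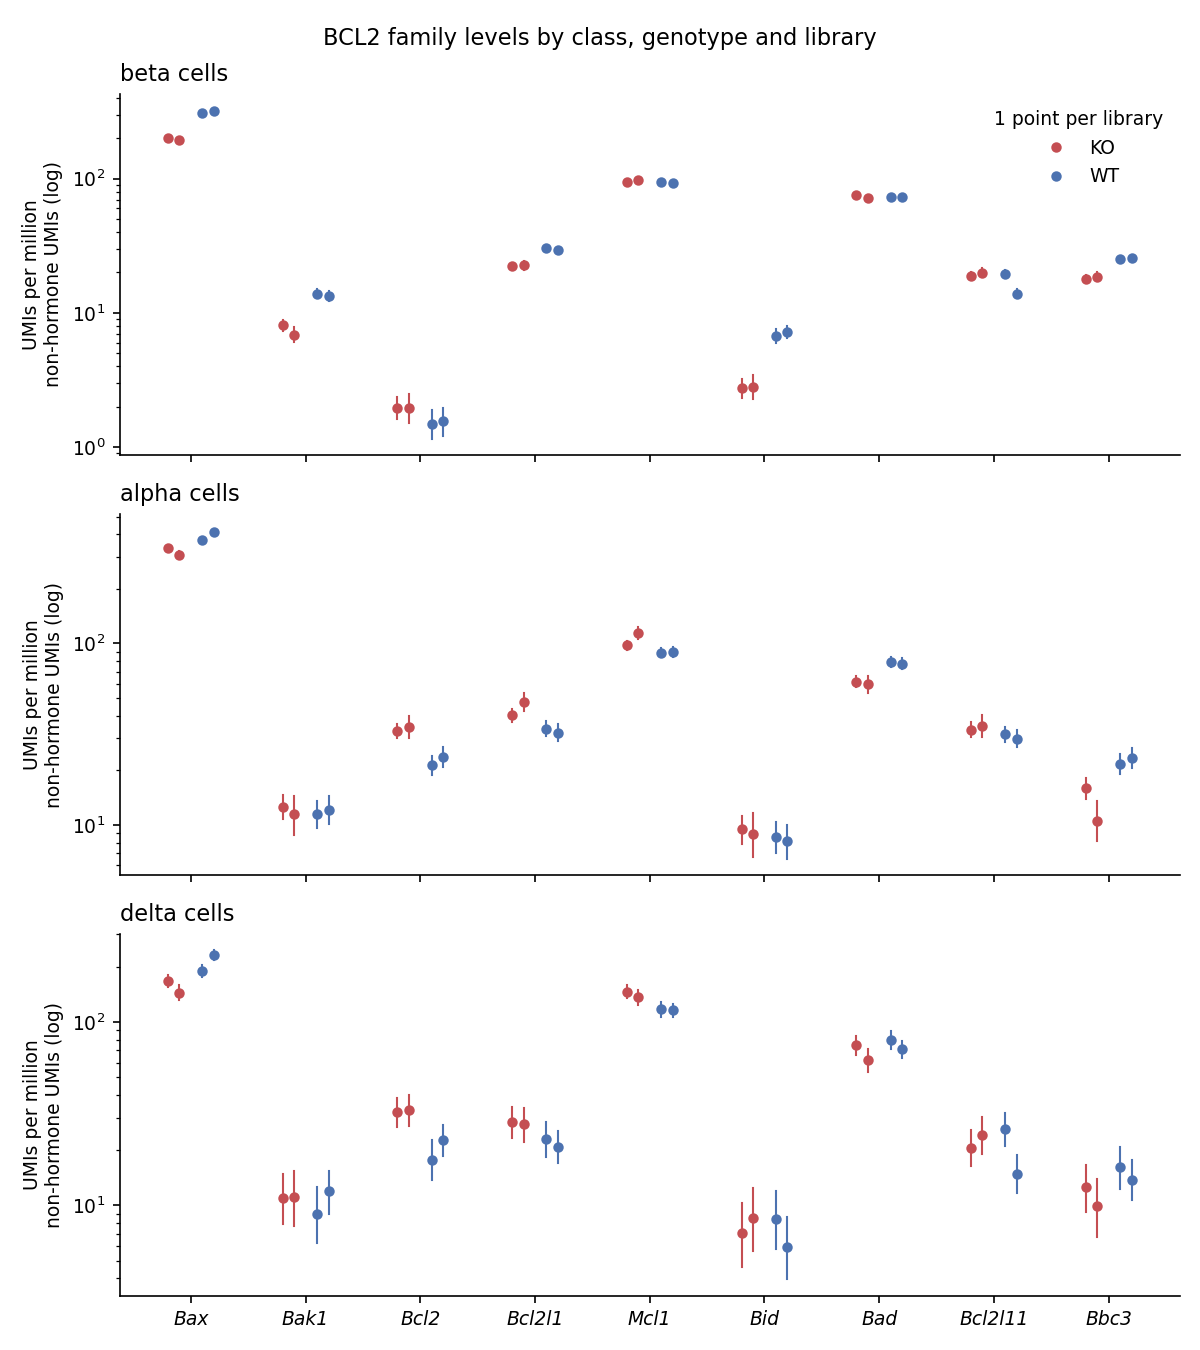
CPM of non-hormone UMIs (log axis) of 9 members in beta, alpha and delta cells, with KO libraries left of WT libraries and exact Poisson 95% intervals as bars (counting error only). In beta cells, Bid at 2.76 and 2.80 in KO lies below 6.73 and 7.19 in WT, and Bcl2 is lower than in both other classes.

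In KO beta cells 5 of the 9 members tested fell relative to the other genes of the cell: Bid, Bak1, Bax, Bbc3 and Bcl2l1. None rose, and Mcl1, Bad, Bcl2 and Bcl2l11 did not pass the test. Over all genes, 39.2% were called, 20.2% lower and 19.1% higher. On the scale of CPM the 5 falling members had both KO libraries below both WT libraries, as 34.2% of all genes did, and Bcl2 had both above, as 38.9% did. The remaining member, Pmaip1, was too low to be tested. These falls are relative to TMM scaling, which centres the median gene. When sums were scaled by all UMIs or by cell number, the median over genes was a log2 value of 0.91 or 0.92, Bid still fell (with 1.88% and 2% of all genes called lower), and Bax, Bak1, Bcl2l1 and Bbc3 turned positive.

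Bid, whose protein is cut by caspase-8 and carries the death receptor signal to mitochondria, showed the largest fall of the members. It had 2.76 and 2.80 CPM in KO beta cells, against 6.73 and 7.19 in WT beta cells. The groups did not overlap, and the values rest on 152 and 98 UMIs in KO and 304 and 334 in WT. The log2 difference was -1.35 (SE 0.137, edgeR adjusted p = 0.000765). Bid was also the only tested member with fewer UMIs per cell in both KO libraries, at 0.0638 and 0.0718 against 0.0860 and 0.0962 in WT, where 2.68% of genes were lower and 89.9% higher in both KO libraries on that measure. The log2 difference was -0.44 (SE 0.161, adjusted p = 0.0263) scaled by all UMIs and -0.43 (SE 0.208, adjusted p = 0.0439) scaled by cell number.

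Both effectors fell under TMM scaling and on CPM of non-hormone UMIs, where the log2 differences were -0.68 for Bax and -0.86 for Bak1. Neither fell when sums were scaled by all UMIs or by cell number. Bax had 200.4 and 193 CPM in KO beta cells, against 309 and 321 in WT beta cells, without overlap. Its log2 difference was -0.70 (SE 0.0712, edgeR adjusted p = 0.000765), which became 0.21 scaled by all UMIs and 0.22 scaled by cell number. Bak1, the second pore former, had 8.12 and 6.85 in KO and 13.9 and 13.4 in WT beta cells. Its log2 difference was -0.88 (SE 0.111, adjusted p = 0.0016), which became 0.03 scaled by all UMIs and by cell number. Per cell, Bak1 was nearly level, at 0.188 and 0.176 UMIs in KO and 0.177 and 0.179 in WT, whereas Bax had 4.64 and 4.95 in KO and 3.95 and 4.29 in WT.

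Among the survival genes, Bcl2l1 was the one that passed the test. It had 22.3 and 22.6 CPM in KO beta cells and 30.4 and 29.3 in WT beta cells, a log2 difference of -0.44 (SE 0.0638, edgeR adjusted p = 0.00272) that turned to 0.47 and 0.49 under the scalings by all UMIs and by cell number. Mcl1, a short-lived survival protein, had 94.3 and 98.3 in KO and 95.3 and 92.4 in WT, with overlapping groups and a log2 difference of 0.01 (SE 0.0602). Bcl2 had 1.96 and 1.94 in KO and 1.48 and 1.55 in WT, a log2 difference of 0.34 (SE 0.197, adjusted p = 0.216) at a level of 68 to 108 UMIs per KO library.

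Of the other BH3-only genes, Bbc3, a p53 target, fell to 17.9 and 18.6 CPM in KO beta cells, against 25.02 and 25.5 in WT beta cells. The log2 difference was -0.49 (SE 0.0731, edgeR adjusted p = 0.00293), and it turned to 0.42 and 0.43 scaled by all UMIs and by cell number. Bad, which is controlled by phosphorylation, had 75.8 and 72.4 in KO and 73.2 and 73.3 in WT (log2 -0.01, SE 0.0608). Bcl2l11 had 18.9 and 19.96 in KO and 19.4 and 13.9 in WT, so the WT libraries differed from each other by more than KO from the higher of them. Its log2 difference was 0.20 (SE 0.139, adjusted p = 0.292), and 0.43 (adjusted p = 0.0127) without WT replicate 1. Pmaip1 had 17 and 4 UMIs in KO and 3 and 4 in WT beta cells.

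Counting by strand is not stated, and some members share sequence with genes on the other strand. The 3′ end of Bid (GRCm38, chr6:120891930-120916853, minus strand) overlaps that of Bcl2l13 by 913 bases, and Bak1 (chr17:27019810-27029009, minus strand) lies within Ggnbp1. Neither partner passed the test in beta cells, with log2 differences of 0.17 (adjusted p = 0.157) for Bcl2l13 and -0.22 (adjusted p = 0.147) for Ggnbp1. Bad (chr19:6941861-6951899, plus strand) overlaps Gpr137 by 620 bases. Bax (chr7:45461697-45466898, minus strand) overlaps an annotated gene on its own strand, Gm45808, that is not among the genes listed. Reads that fall in these overlaps cannot be assigned by the counts alone.

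**Figure D2:**
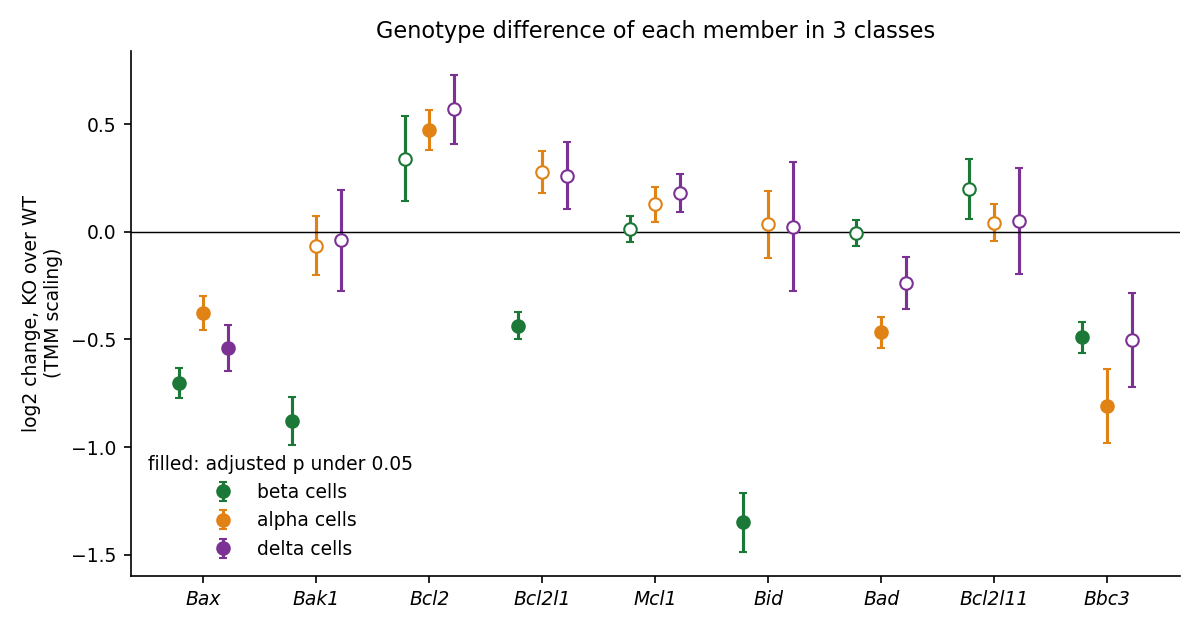
Log2 change of KO over WT (TMM scaling) with its SE for 9 members in beta, alpha and delta cells; filled points passed an adjusted p of 0.05. Bid stands at -1.35 in beta cells and near 0 in the other classes, while Bax is negative in all 3 (and positive in all 3 when scaled by cell number).

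**Figure D3:**
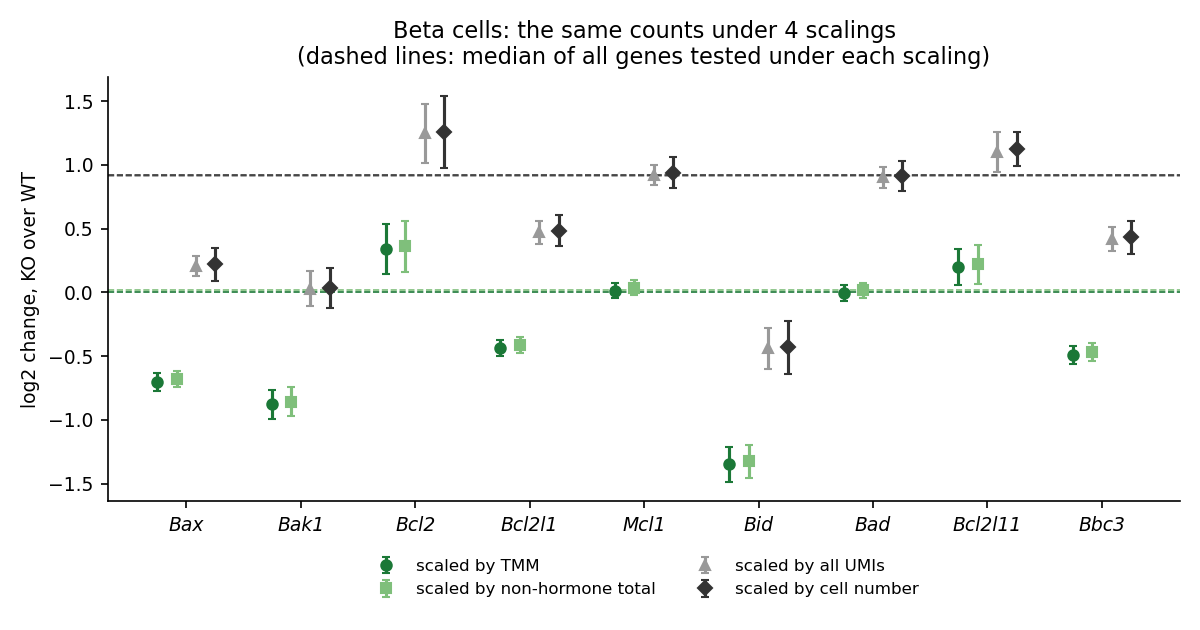
Log2 change of KO over WT in beta cells, with SE, for 9 members under 4 scalings; dashed lines mark the median of all genes tested. Under scaling by all UMIs and by cell number the median is 0.91 and 0.92, and of the 9 members only Bid lies below 0.

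Promoter sequence is shown for the member with the largest fall in beta cells, the effector that passed the test in all 3 classes under TMM scaling, and the survival gene that separates the classes. The windows run from 250 to 31 bases before the RefSeq transcription start (GRCm38.p6) and hold no annotated exon. Capitals mark GC boxes, GGGCGG or its reverse complement CCGCCC, which occur in 28.5% of 32817 promoter windows of this length.
Bid, chr6:120916855-120917074, minus strand: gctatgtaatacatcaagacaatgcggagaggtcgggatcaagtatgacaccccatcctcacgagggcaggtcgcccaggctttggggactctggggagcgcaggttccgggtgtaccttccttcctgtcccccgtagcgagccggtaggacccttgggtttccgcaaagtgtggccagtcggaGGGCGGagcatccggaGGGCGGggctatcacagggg
Bax, chr7:45466929-45467148, minus strand: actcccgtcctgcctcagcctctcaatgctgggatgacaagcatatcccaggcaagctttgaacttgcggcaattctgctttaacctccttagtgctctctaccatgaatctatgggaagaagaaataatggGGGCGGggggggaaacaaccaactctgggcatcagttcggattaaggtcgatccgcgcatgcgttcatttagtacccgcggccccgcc
Bcl2, chr1:106714321-106714540, minus strand: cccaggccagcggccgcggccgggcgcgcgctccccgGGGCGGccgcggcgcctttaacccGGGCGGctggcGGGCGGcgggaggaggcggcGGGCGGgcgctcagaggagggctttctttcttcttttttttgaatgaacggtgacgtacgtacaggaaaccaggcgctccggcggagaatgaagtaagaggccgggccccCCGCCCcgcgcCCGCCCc
Bid has 2 GC boxes 66 and 50 bases before its start, Bax has 1 at 118 bases and Bcl2 has 6. Windows of 220 bases were searched on both strands for other motifs, chosen with the values known. The CCAAT box (CCAAT, in 31.0% of windows), the E-box (CACGTG, 5.01%), the cAMP response element (TGACGTCA, 1.14%), the C/EBP-ATF element (TGATGCAA, 0.683%), the AP-1 site (TGANTCA, 6.12%) and the ER stress response element (0.104%) had no match in these 3 windows. The GC share was 62.3% for Bid, 53.6% for Bax and 73.6% for Bcl2, where the median window had 51.8%. A match is a description of the letters and not a binding site.

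KO beta cells hold less insulin, so levels were also compared at a matched insulin share. Among beta cells with 50 to 70% of UMIs from insulin there were 435 and 380 cells in KO and 2120 and 2098 in WT. Bid had 2.02 and 3.48 CPM in these KO cells, against 6.81 and 7.51 in the WT cells. Bax had 209.7 and 207 in KO, against 319 and 324 in WT. The groups did not overlap for either gene in this bin, and the share of all genes without overlap was not counted by bin. Bak1 had 9.35 and 6.30 in KO and 13.9 and 12.9 in WT, and Bcl2l1 had 20.4 and 23.1 in KO and 31.2 and 30.1 in WT. Mcl1 had 84.6 and 99.1 in KO and 95.9 and 92.7 in WT, with overlap. Bcl2 had 1.17 and 0.978 in KO and 1.45 and 1.75 in WT, the reverse of its order in all beta cells. These Bcl2 values rest on 11 and 9 UMIs in KO and 42 and 52 in WT. At 30 to 50% insulin Bcl2 overlapped, at 1.97 and 2.15 in KO and 5.16 and 1.71 in WT. At 30 to 50% insulin the groups did not overlap for Bax, at 195 and 188 in KO and 309 and 445 in WT, or for Bid, at 2.58 and 2.34 in KO and 9.67 and 3.41 in WT, the last from 2 UMIs. At 10 to 30%, where WT replicate 1 alone of the WT libraries had 20 cells or more (39), its Bax of 196 lay between the KO values of 207 and 186. Within each KO library, Bax moved little from the 10 to 30% bin to the 50 to 70% bin, at 207 and 209.7 in the first library and 186 and 207 in the second.

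**Figure D4:**
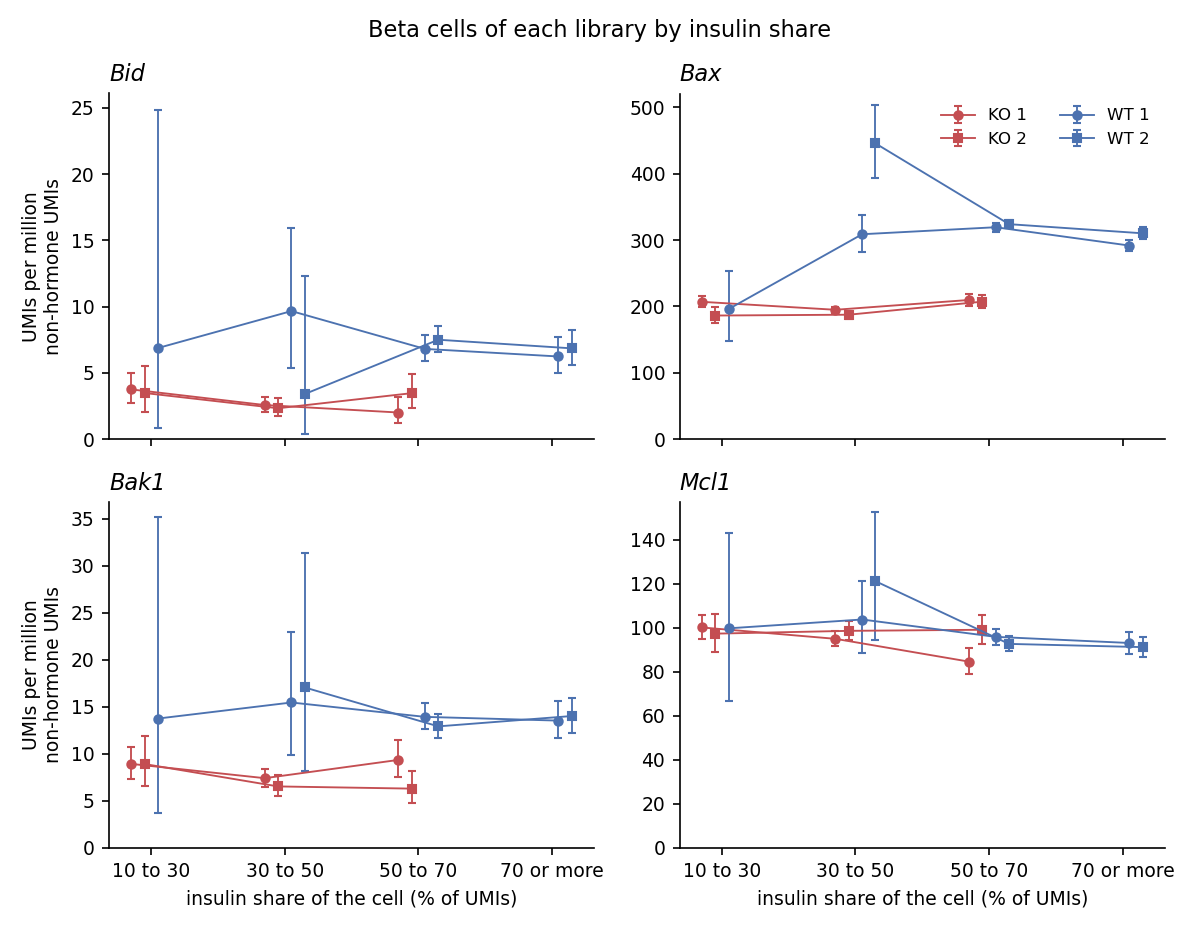
CPM of non-hormone UMIs of Bid, Bax, Bak1 and Mcl1 in beta cells binned by insulin share (% of UMIs), 1 line per library, with exact Poisson 95% intervals; bins under 20 cells are left out. At 50 to 70% insulin, Bid is 2.02 and 3.48 in KO and 6.81 and 7.51 in WT, while Mcl1 overlaps.

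Shares of beta cells with a UMI followed the CPM once depth was matched. The median beta cell had 21814 and 24017 non-hormone UMIs in KO and 12156 and 12559 in WT. After every cell was thinned to 10000 non-hormone UMIs, Bid was found in 2.52% and 2.56% of KO beta cells and 6.29% and 6.89% of WT beta cells. Without thinning the shares were 6.01% and 6.74% in KO and 8.15% and 8.78% in WT. Thinning left out 80 and 56 KO beta cells and 755 and 583 WT beta cells that were shallower. Bak1 was found in 7.69% and 6.39% of thinned KO and 12.8% and 12.3% of thinned WT beta cells. Its unthinned shares were 16.9% and 15.5% in KO and 15.8% and 16.0% in WT. Bcl2 was found in 1.79% and 1.84% of thinned KO and 1.18% and 1.24% of thinned WT beta cells, far under the 27.2% and 27.1% of KO and 18.5% and 19.8% of WT alpha cells. A class that should lack Bid was not defined, so its share from free RNA was not tested.

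In alpha cells, where insulin was 0.174% and 0.168% of UMIs in KO and 0.496% and 0.589% in WT, 4 of 9 members passed the test, 1 higher and 3 lower, and 13.4% of all genes did, 5.35% higher and 8.05% lower. Bcl2 rose to 33.0 and 34.7 CPM in KO alpha cells, against 21.3 and 23.8 in WT alpha cells (log2 0.47, SE 0.0924, edgeR adjusted p = 0.017). Bax had 337 and 308 in KO, against 370 and 409 in WT (log2 -0.38, SE 0.0795, adjusted p = 0.0212; 0.39 scaled by cell number). Bad fell to 61.7 and 59.8 in KO, against 78.7 and 77.5 in WT (log2 -0.47, SE 0.0723, adjusted p = 0.0111; 0.30 scaled by cell number). Bbc3 fell to 16.0 and 10.6 in KO, against 21.7 and 23.4 in WT (log2 -0.81, SE 0.171, adjusted p = 0.0214; -0.041 scaled by cell number). Bid had 9.47 and 8.88 in KO and 8.58 and 8.13 in WT, and did not pass (log2 0.04, SE 0.156). Bcl2l1 had 40.2 and 47.7 in KO and 34.0 and 32.2 in WT without overlap and did not pass (log2 0.28, SE 0.0960, adjusted p = 0.0874). By CPM, 5 of 9 members had both KO libraries above both WT libraries and 3 had both below. The share of all genes that did so is not given for alpha cells, so these counts are not read as a result about the family. In beta cells that share was 38.9% above and 34.2% below. Bak1, Mcl1 and Bcl2l11 lay between -0.06 and 0.13. Each of the 4 calls was lost without either KO library, where 11 and 36 genes of the whole table were called, and Bbc3 stood at -1.23 without KO replicate 1. On the scale of CPM the median alpha cell gene stood at 0.12.

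In delta cells 1 of 9 members passed the test, against 7.19% of all genes, made up of 4.89% lower and 2.3% higher. Bax fell to 167 and 144 CPM in KO delta cells, against 190 and 231 in WT delta cells (log2 -0.54, SE 0.107, edgeR adjusted p = 0.019). Without WT replicate 2 the value was -0.38 (adjusted p = 0.106), and scaled by cell number it was 0.17. Bcl2 had 32.1 and 33.0 in KO and 17.7 and 22.7 in WT, without overlap (log2 0.57, SE 0.161, adjusted p = 0.0566; 0.0448 without KO replicate 1). The other members lay between -0.50 for Bbc3 and 0.26 for Bcl2l1. By CPM, 3 of 9 members had both KO libraries above both WT libraries and 2 had both below. The share of all genes that did so is not given for delta cells either, so these counts too are not read as a result about the family. Bid had 7.04 and 8.58 in KO and 8.46 and 5.95 in WT, with overlap. Delta cells gave only 27 to 31 Bid UMIs per library, and the SE of its log2 difference was 0.299.

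The KO effect was compared between classes within the same libraries, with the library as a block. Against alpha cells, 5 of 10 members differed, 4 lower and 1 higher, where 23.3% of all genes did, 12.3% lower and 11.1% higher. The Bid effect was lower in beta cells by a log2 value of -1.38 (SE 0.241, edgeR adjusted p = 0.00122). The effect was also lower in beta cells for Bak1 at -0.80 (SE 0.160, adjusted p = 0.00309), Bcl2l1 at -0.71 (SE 0.103, adjusted p = 0.00032) and Bax at -0.32 (SE 0.0707, adjusted p = 0.00534). Bad was the exception, with an effect higher in beta cells by 0.47 (SE 0.0819, adjusted p = 0.00124). When sums were scaled by all UMIs, Bid stayed called at -0.68, Bak1 (-0.10) and Bcl2l1 (-0.02) were not called and Bax turned to 0.37. Bax also lost its call without KO replicate 1 (-0.24, adjusted p = 0.101). Against delta cells, Bid (-1.36, SE 0.346, adjusted p = 0.0169), Bak1 (-0.83, SE 0.253, adjusted p = 0.0411) and Bcl2l1 (-0.69, SE 0.153, adjusted p = 0.00778) differed, where 16.1% of all genes did, 7.73% lower and 8.36% higher, but scaled by all UMIs Bcl2l1 turned to 0.050 and Bid (-0.63) and Bak1 (-0.09) were not called. Without WT replicate 2 these 3 had adjusted p-values of 0.168, 0.0752 and 0.0777, and Bak1 had 0.231 without WT replicate 1 and 0.134 without KO replicate 2. The Bbc3 effect, not called between beta and alpha cells (0.31), was 0.79 (adjusted p = 0.00382) without KO replicate 1.

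A share within the family does not depend on how libraries are scaled. In beta cells the effectors made up 46.4% ± 0.918 of the 10 members' UMIs in KO and 57.0% ± 1.15 in WT (SD, n = 2 each). Survival genes made up 27.5% ± 0.951 in KO and 21.7% ± 0.537 in WT, and BH3-only genes 26.1% ± 0.0331 in KO and 21.2% ± 0.614 in WT. The groups did not overlap for any role in beta cells. The shares of the roles in a library fill the whole, so a lower effector share leaves more for the others. On the scale of CPM, Mcl1 and Bad overlapped between KO and WT beta cells. How often other gene sets differ in this way was not tested. Mcl1 alone was 21.3% and 22.5% of family UMIs in KO beta cells and 16.6% and 16.0% in WT. In alpha cells the effectors made up 52.5% ± 2.77 in KO and 58.4% ± 1.72 in WT, and survival genes 28.9% ± 3.22 in KO and 21.2% ± 0.742 in WT. In delta cells the effectors made up 34.7% ± 1.15 in KO and 44.3% ± 4.98 in WT, and survival genes 42.1% ± 1.26 in KO and 31.8% ± 0.732 in WT. BH3-only genes made up 18.6% ± 0.448 in KO and 20.4% ± 0.978 in WT alpha cells and 23.2% ± 0.116 in KO and 23.9% ± 4.25 in WT delta cells. With 2 libraries against 2, an exact two-sided permutation test cannot go below 0.33. Per cell, the 10 members together gave 10.3 and 11.2 UMIs in KO beta cells and 7.35 and 7.72 in WT beta cells.

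**Figure D5:**
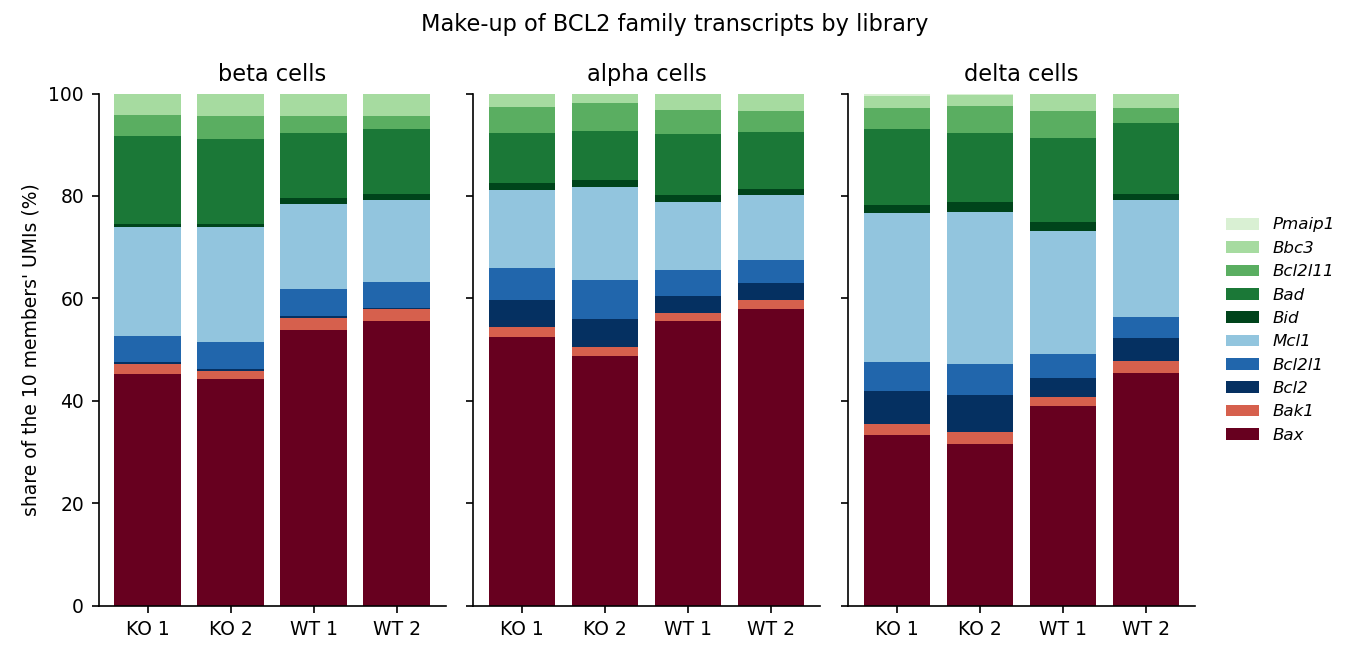
Share (%) of the 10 members in their summed UMIs, 1 bar per library, in beta, alpha and delta cells, with KO left of WT. The effectors Bax and Bak1 (red) fill 46.4% on average in KO beta cells and 57.0% in WT beta cells.

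Other family genes moved in both directions in beta cells. Of 16 listed in the files 13 were tested, 5 rose and 1 fell, where 19.1% of all genes were called higher and 20.2% lower. The median log2 difference was 0.12, against 0.00 over all genes. Bmf, a BH3-only gene tied to the cytoskeleton, rose to 8.66 and 10.7 CPM in KO beta cells, against 3.88 and 4.63 in WT beta cells (log2 1.16, SE 0.164). Bcl2l14 rose to 3.17 and 3.03 in KO, against 0.819 and 0.926 in WT (log2 1.80), and the survival gene Bcl2l2 to 36.2 and 36.8, against 29.98 and 29.96 (log2 0.26). The BH3-only gene Bik fell to 8.83 and 7.85 in KO, against 13.2 and 13.8 in WT (log2 -0.71). Its log2 difference turned to 0.20 scaled by all UMIs and by cell number. Bnip3l also rose (0.23), and Bok, Bcl2l13, Bnip1, Bnip2 and Bnip3 lay between -0.27 and 0.17. The last that rose, Hrk, named after its values were seen, had 0.671 and 0.9995 CPM in KO and 0.0886 and 0.301 in WT.

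Of 16 tested caspase and apoptosome genes, 1 rose and 5 fell in KO beta cells, where 19.1% of all genes rose and 20.2% fell. Dffb, the nuclease that cuts DNA in apoptosis, fell to 9.81 and 9.28 CPM in KO, against 25.9 and 23.2 in WT (log2 -1.38, SE 0.0838, edgeR adjusted p = 0.000153). Like Bid, Dffb stayed negative at -0.48 and -0.46 under the scalings by all UMIs and by cell number. Cycs (cytochrome c) fell by 0.57 on the log2 scale and Casp8, which cuts BID, by 0.45, and both turned positive under those scalings. Dffa, the inhibitor of Dffb, rose by 0.34. Of 6 inhibitors of apoptosis 2 rose, set against the same shares of all genes, namely the caspase-8 inhibitor Cflar (log2 0.42) and Birc2 (0.39).

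Upstream lists were mixed under TMM scaling, and some hold members of the 10. Each count below is read against 19.1% of all genes that rose and 20.2% that fell in beta cells. Each falling gene named here other than Bid turned positive when scaled by all UMIs and by cell number. In the p53 list, which holds Bax, Bbc3 and Pmaip1, 4 of 15 tested genes rose and 8 fell. Trp53inp1 (log2 0.93), Perp (0.60) and Sesn1 (0.49) rose, and Aen (-0.83), Cdkn1a (-0.58) and Trp53 itself (-0.38) fell. In the ER stress list, which holds Bbc3, Bcl2l11 and Pmaip1, 4 of 12 rose and 4 fell. The sensors Eif2ak3 (0.80) and Ern1 (0.68) and the transcription factor gene Ddit3 (0.49, CHOP) rose, while Atf4 (-0.46), Chac1 (-0.68) and Ppp1r15a (-0.41) fell. Of 9 death receptor and adaptor genes, counting Bid, 1 rose (Ripk1, 0.30) and 2 fell (Bid and Tnfrsf12a, -0.74). Of 18 mitochondrial and ER partners 4 rose and 8 fell. Among those that rose were Ppp3ca (1.01), Itpr1 (0.61) and Tmbim6 (0.47). Among those that fell were the channel gene Vdac1 (-0.76), Bag3 (-0.48) and the BID receptor gene Mtch2 (-0.40). Of 7 tested genes that control MCL1 turnover 2 rose, Gsk3a (0.36) and the ubiquitin ligase gene Fbxw7 (0.33), and 0 fell.

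Outside the endocrine classes the order of members was different. Pmaip1, at most 2.09 CPM in any endocrine class sum above, stood at 136 and 166 in KO and 94.2 and 125 in WT endothelial-like cells. In macrophage-like cells it had 11.2 and 15.0 in KO and 23.7 and 24.3 in WT. Mcl1 had 430 and 445 in KO and 467 and 464 in WT endothelial-like cells, several times its level in beta cells. Bcl2a1b, a survival gene of blood cells, had 1013 and 938 in KO and 1278 and 1387 in WT macrophage-like cells, and 1.88 and 1.06 in KO and 1.46 and 1.25 in WT beta cells. Schwann-like cells, only 33 and 21 in KO and 22 and 13 in WT, had more Bcl2l1 than the beta, alpha, delta, endothelial-like and macrophage-like cells, at 131 and 94.6 in KO and 110.3 and 74.9 in WT. These levels are descriptions with no test.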

How the data were processed

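UMI counts per gene and cell were deposited by the authors for 4 libraries; per the submitters' processing notes, Cell Ranger 3.0.0, the mm10 build and Seurat 2.3.4 were used. The counts were analysed as deposited: no cell had fewer than 501 genes or over 9.96% mitochondrial UMIs. The top-scoring doublets by Scrublet (0.8% per 1000 cells) were removed, which took 150 and 49 KO and 283 and 273 WT cells. UMIs were summed per class and library and tested with edgeR 4.0.16 (quasi-likelihood test, TMM, filterByExpr, Benjamini-Hochberg adjusted p under 0.05 over all genes tested; R 4.3.3). SE is the absolute log2 difference divided by the root of F. Levels leave out 9 hormone genes. Intervals are exact Poisson or binomial at 95% and cover counting error only. The fits were tested on simulated data.

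Classes outside beta, alpha and delta were named where a cell had at least 3 markers of a list with at least 2 UMIs each. Of 19074 symbols, 18826 were found in GENCODE vM21 (GRCm38), and promoters come from RefSeq. The members and lists were chosen with earlier results of these data known. Named genes are all 10 members and, of each list, the called beta cell genes with the lowest p (up to 3 in each direction), and also other family genes with at least 5 CPM in a class. Alternatives were RLE, library size only, cell number, DESeq2 1.42.0, other filters, hormone genes left out, stricter shares, doublets kept, a second hormone left out, each library left out, KO libraries for class comparisons and a replicate block. Reads and empty droplets were not analysed here. Python 3.11.15 and scanpy 1.11.5 were used.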

Additional observations from a re-analysis of the deposited data

Results flagged for a closer look

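These results differed between classes by a test of the difference itself (KO effect in beta cells minus that in the other class, log2 scale, edgeR with the library as a block). Against alpha cells the difference was -1.38 for Bid, -0.80 for Bak1, -0.71 for Bcl2l1, -0.32 for Bax (0.37 with library size only, and not called without KO replicate 1) and 0.47 for Bad. Against delta cells it was -1.36 for Bid, -0.83 for Bak1 and -0.69 for Bcl2l1 (0.050 with library size only). With library size only, Bid against alpha cells and Bad were the ones still called in the same direction. KO libraries also differed from WT libraries in mitochondrial share and detected genes in every class, and the part of these in the differences was not tested.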

How the results depend on the processing

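Of 744 member values under alternatives, 629 kept direction and side of the threshold, 34 lost their call, 42 gained one and 39 reversed. A further 43 sign changes, with neither value called, are counted as kept. RLE, a mean of at least 20 counts, the second hormone left out and the replicate block changed no member's call. Bcl2 in alpha cells had an adjusted p of 0.0733 with DESeq2, and the Bid difference between beta and delta cells 0.0545 with stricter shares. Reversals came with library size only, with cell number, and with KO in place of WT libraries. In beta cells, KO over WT turned to 0.21 and 0.22 for Bax, 0.030 and 0.035 for Bak1, 0.47 and 0.49 for Bcl2l1, 0.90 and 0.91 for Bad and 0.42 and 0.43 for Bbc3 (library size only, then cell number). Scaled by cell number, alpha cells gave 0.39 for Bax, 0.70 for Bak1 and 0.30 for Bad, and delta cells 0.17, 0.66 and 0.47 for the same genes. With library size only, the beta minus alpha effect was 0.37 for Bax, 0.56 for Bcl2 and 0.58 for Mcl1, and the beta minus delta effect 0.58 for Bax, 0.050 for Bcl2l1 and 0.58 for Mcl1. Beta over alpha gave -0.89 for Bak1 with library size only, and with KO libraries -0.77 for Bak1 and 0.20 for Bad. By cell number it gave 0.071 for Bcl2l1, 0.29 for Mcl1, 0.13 for Bad and 0.38 for Bbc3. Beta over delta gave -0.77 for Bax, -0.99 for Bak1, -0.90 for Bcl2l1 and -0.58 for Bbc3 with library size only, and -0.23 for Bcl2l1 and 0.21 for Bad with KO libraries. By cell number it gave 0.31 for Mcl1, 0.59 for Bid, 0.58 for Bad and 0.35 for Bcl2l11. Both scalings follow the hormone share or the UMIs per cell by construction.

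Genes called numbered 5895 in beta cells, 12908 with library size only, 13086 by cell number and 2352 (without KO replicate 2) to 5878 with a library left out. In alpha cells they numbered 1719, and 3386, 11038 and 11 to 1065 under the same alternatives, 2757 with no filter and 851 with DESeq2. In delta cells they numbered 838, and 9208 by cell number, 1661 with no filter, 415 with DESeq2 and 266 to 1179 with a library left out. Library size only gave 9226 against 3460 for beta minus alpha, 8620 against 2372 for beta minus delta (1440 to 2230 with a library left out) and 12555 against 8063 for beta over delta. The cause was not tested. In beta cells, 97.8% of calls were higher with library size only and 48.6% with TMM. The BH3-only share of KO beta cells was 26.2% with stricter shares. Replicate numbers do not pair the libraries (correlations of 0.08 in beta, -0.17 in alpha and -0.02 in delta cells), and with the replicate block 6244 genes were called in beta cells. Counts per library were 3 to 17 UMIs for Pmaip1 and 67 to 108 for Bcl2 in beta cells, and 27 to 31 for Bid in delta cells.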

Other observations

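Some genes followed members closely over the 12 sums of 3 classes in 4 libraries, on the log2 scale of CPM plus 1, among 6727 genes. The sums share libraries and classes, so the correlations are descriptions. Nearest to Bax were Lamtor4 (Pearson r = 0.980), Ap2s1 (0.976) and Emc10 (0.969). Nearest to Mcl1 were Rbfox2 (0.977), Dync2h1 (0.956) and Zufsp (0.956), and nearest to Bad were 1700021F05Rik (0.878), Emc9 (0.870) and Timm17b (0.819). In cells with at least 3% of UMIs from Ppy and insulin under 5%, Bid had 7.87 and 7.16 CPM in KO and 7.26 and 8.48 in WT, and Bcl2 had 15.1 and 9.36 in KO and 4.84 and 10.5 in WT. These were not tested.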
